A study of Mus musculus with 16 samples.

Results

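The m6A methylation of mRNA in LPS-stimulated peritoneal macrophages (PMs) was compared between Adap-/- and WT mice. PMs had been elicited with thioglycolate and exposed to LPS at 1 μg/ml during 6 h. The groups used here were Adap-/- LPS input, Adap-/- LPS IP, WT LPS input and WT LPS IP, with 2 libraries each, so that 8 of the 16 libraries of the series entered the comparison. The other 8 libraries came from mock-treated PMs of both genotypes and are used only for reference. According to the methods of the study, all mice were of C57BL/6 background, and sex-matched littermates of 6 to 8 weeks were used. The Adap deletion is carried by the whole animal and is not limited to macrophages. The labels do not say whether the replicates came from separate mice, and p-values therefore measure only the spread between these samples. One row was taken for every distinct m6A peak of the deposited table, which gave 7069 peaks on 4943 genes. Of these, 7020 had enough reads to be tested, and 49 were left out.

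N6-methyladenosine (m6A) is the most common internal modification of mRNA. It is deposited during transcription by a writer complex built around METTL3 and METTL14 and is bound by reader proteins that affect the stability, splicing and translation of the transcript. In MeRIP-seq, RNA is cut into fragments of about 100 nt, one part is sequenced directly (input) and the rest is captured with an m6A antibody (IP). The ratio of IP to input is thus a relative measure of how strongly that stretch of mRNA was captured, corrected for the abundance of the transcript. ADAP, encoded by *Fyb1*, is an adapter protein of hematopoietic cells that links immune receptors to integrins. LPS is sensed by TLR4, which activates NF-κB and type I interferon signaling in macrophages. Libraries were scaled on the average peak, so a global shift of m6A would not be visible, and fewer cells of a type cannot be told apart from less RNA per cell.

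The genotype was checked on *Fyb1* first. A CDS peak of *Fyb1* had 618 and 592 input reads in WT PMs and 1 and 0 in Adap-/- PMs. Another *Fyb1* peak, shared with ENSMUSG00000089647, still had 140 and 93 input reads in Adap-/- against 186 and 184 in WT PMs. Peaks of 7 of 8 macrophage markers were tested, and their summed input level was 8216 to 8616 CPM (reads scaled to library size) in Adap-/- and 9406 to 9789 in WT PMs. Among 9 neutrophil markers, *Csf3r* alone had a tested peak, at an input level of 382 and 394 CPM in Adap-/- and 314 and 375 in WT PMs, and none of the listed B cell, T cell, eosinophil, mast cell, fibroblast and mesothelium markers had one, where the table covers only transcripts with an m6A peak. Reads within the peaks were uneven between the IP libraries, with 19030373 and 11085317 in Adap-/- and 6517124 and 13731908 in WT PMs. The inputs held 3432746 to 4325961 reads within the peaks. The WT IP libraries also stood apart on transcripts that LPS lowers. On 365 peaks with an LPS change of the input below −2 (log2, mean of both genotypes), the median log2 IP-to-input ratio was 0.90 and 0.62 in WT and 0.35 and 0.38 in Adap-/- PMs. On the remaining 6655 peaks, these medians were all between 0.02 and 0.03. The part of this difference in the results below was not tested, except where values without these peaks are given. Whether reads passed between libraries was not tested.

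After LPS, 122 peaks had a higher and 173 a lower IP-to-input ratio in Adap-/- PMs than in the WT, where a change of more than 2-fold and p below 0.05 before adjustment were required (the unadjusted thresholds). These were 1.74% and 2.46% of all peaks tested, or 4.20% together. They lay on 137 and 190 genes. No peak passed an adjusted p of 0.05 in edgeR's quasi-likelihood test (0.00% of peaks), and the lowest adjusted p was 0.0827, shared by 7 peaks. Regardless of fold change, 477 peaks were higher (6.79%) and 329 lower (4.69%) at an unadjusted p below 0.05, 806 in total (11.5%), where 351 would be expected from 7020 tests without any difference. DESeq2 on the same libraries called 32 peaks higher (0.456%) and 28 lower (0.399%) after adjustment. The median log2 fold change of all peaks was 0.02, and 51.4% of peaks were above 0.

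The count of 295 depended on single RNA preparations. Without WT LPS replicate 1, the IP library with the fewest reads, 93 peaks were higher and 52 lower. Without Adap-/- LPS replicate 1 the numbers were 222 and 363, and without Adap-/- LPS replicate 2 they were 133 and 384. With each preparation left out in turn, 27 of the 122 higher and 28 of the 173 lower peaks stayed past both thresholds each time. With upper-quartile scaling, 89 peaks were higher and 238 lower, so that the share of higher peaks was 27.2% instead of 41.4%.

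The change also went with the level of a peak. Among the 1140 peaks with a mean level below 3 (log2 CPM), the median log2 fold change was −0.34, and 16 peaks were higher and 59 lower. The median was larger in each successive class, up to 0.17 in the 570 peaks above 8, where 1 peak was higher and 0 were lower. When this trend was removed within the IP and within the input libraries, a setting chosen after seeing the data, 135 peaks were higher and 135 lower.

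**Figure D1:**
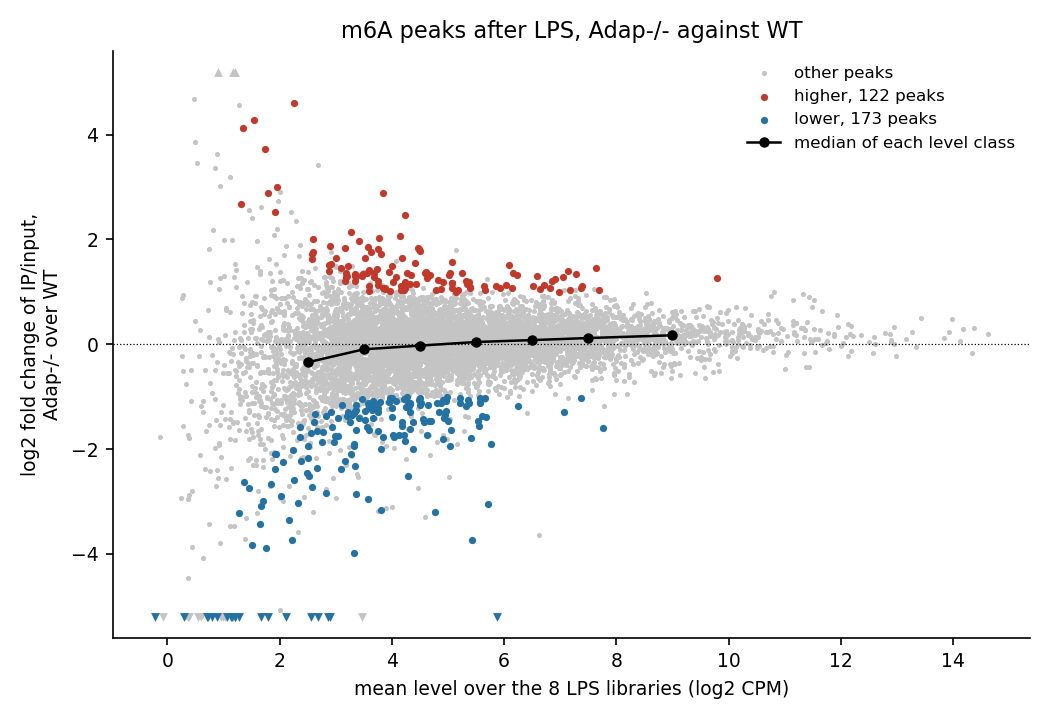
Log2 fold change of the IP-to-input ratio (Adap-/- over WT, after LPS) against the mean level over the 8 LPS libraries (log2 CPM), with 1 point per peak, 122 higher peaks in red, 173 lower peaks in blue and the median of each level class in black. Triangles mark peaks outside the plotted range; the class medians go from −0.34 below a level of 3 to 0.17 above 8, and most of the strongly lower peaks are at low levels.

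The IP and the input parts of the change were then taken separately. In the IP libraries alone, Adap-/- PMs had 705 higher (10.0%) and 576 lower peaks (8.21%) at an adjusted p below 0.05. In the input libraries, 69 were higher (0.983%) and 124 lower (1.77%). Of the 122 peaks with a higher ratio, 88 were also higher in IP after adjustment and 4 were lower in input. Their median log2 fold change was 1.11 in IP and −0.26 in input. Of the 173 peaks with a lower ratio, 100 were lower in IP and 1 was higher in input, with medians of −1.37 and 0.35. Thus the called peaks differed mainly in the IP reads. The IP calls depended on both WT preparations, as 43 peaks were higher and 34 lower without WT LPS replicate 1, and 157 and 196 without replicate 2.

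**Figure D2:**
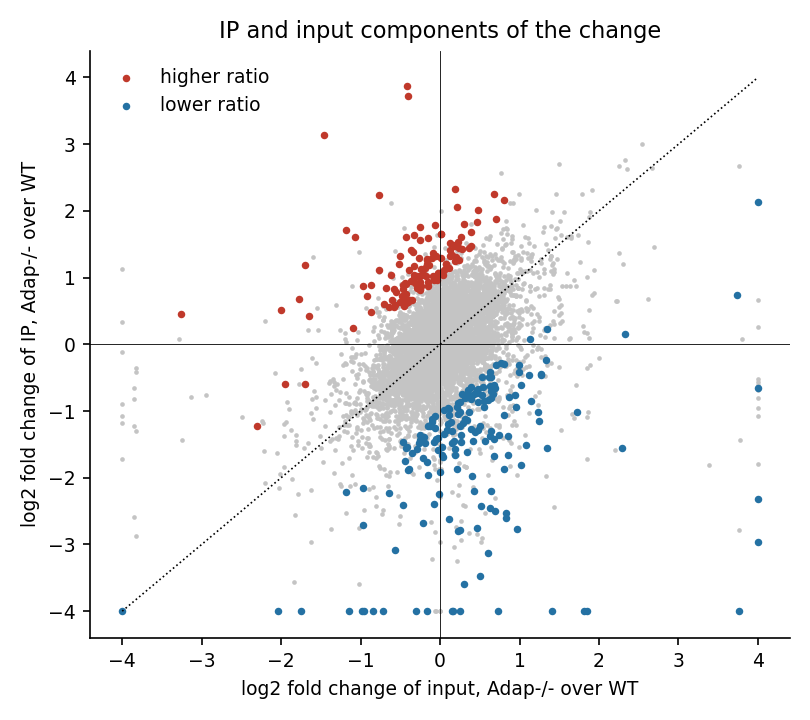
Log2 fold change of IP (vertical) against that of input (horizontal), Adap-/- over WT after LPS, with 1 point per peak and values clipped at −4 and 4. The dotted diagonal marks an equal change in both; the 122 peaks with a higher ratio (red) lie above it with a median IP change of 1.11, and the 173 with a lower ratio (blue) lie below it with a median of −1.37.

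Peaks to be named were those past the unadjusted thresholds with at least 10 reads in each input library and without overlap between the genotypes, the first 10 of each direction by p. There were 105 higher and 133 lower candidates. Non-overlap by itself was common, as both Adap-/- ratios were above both WT ratios on 23.7% of all peaks and below on 21.7%. All 20 named peaks had an adjusted p below 0.05 in DESeq2, and none in edgeR. They had been picked by low p on the same counts, so the DESeq2 result is no separate support for them.

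Among the higher peaks, the first was on ENSMUSG00000045763, described in the table as brain abundant, membrane attached signal protein 1. This stop codon peak (chromosome 15, 25364212 to 25364612) had a ratio of 2.21 and 2.52 in Adap-/- and 0.946 and 1.01 in WT PMs. This was a log2 difference of 1.27 ± 0.17 (SE), with an adjusted p of 0.0827 in edgeR. Its IP level was 0.66 higher (adjusted p = 0.00925) and its input differed by −0.61 on the log2 scale (adjusted p = 0.0387), so both parts contributed. It was also the most abundant of the 20, with 1373 to 2817 input reads per library.

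*Inafm2* had the highest Adap-/- ratio of these 10 peaks. It was 4.76 and 2.95, against 1.07 and 1.04 in WT PMs, which is 1.84 ± 0.34 (SE) on the log2 scale (adjusted p = 0.138). A second *Inafm2* peak was among the 122, and the gene had 3 tested peaks with log2 fold changes from −0.49 to 1.84. *Fbrs*, which encodes fibrosin, had 2.0 and 1.85 against 0.879 and 1.03, and its input differed by only 0.04 on the log2 scale. In *Fam53c* the ratios were 2.05 and 2.29 against 0.761 and 1.03. On this scaling a ratio of 1 is about that of the average peak and no measure of presence or absence of m6A.

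*Znrf1*, an E3 ubiquitin ligase gene, had a start codon peak at 0.736 and 0.869 in Adap-/- and 0.323 and 0.351 in WT PMs (log2 fold change 1.24). *Fem1c*, a substrate receptor of cullin 2 ligases, had 0.791 and 0.986 against 0.309 and 0.379 (1.37). *Arih1*, an RBR-type ligase gene, was lower instead, with a stop codon peak at 0.234 and 0.218 against 0.682 and 0.504 (−1.38, adjusted p = 0.123). The *Arih1* input was the same within 0.02 on the log2 scale, and LPS changed it by −0.13 in WT and −0.07 in Adap-/- PMs, so this lower ratio was on a transcript that LPS did not lower by more than 0.13.

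Other higher peaks lay on transcripts with a large LPS response. *Tagap*, a GTPase-activating protein gene whose peak is shared with ENSMUSG00000090069, had 0.193 and 0.273 in Adap-/- and 0.0940 and 0.0860 in WT PMs. *Pydc3*, a pyrin domain gene, had 0.0858 and 0.125 against 0.0417 and 0.0328. In both genotypes, these peaks of *Tagap* and *Pydc3* were captured far less than the average peak. *Gvin1*, a large interferon-induced GTPase gene, had 0.927 and 1.01 against 0.438 and 0.480. The LPS change of their input in WT PMs was 4.11, 7.28 and 4.36 (log2), respectively. *Pydc3* and *Gvin1* belong to families of near-identical copies, and reads may have been split between copies. ENSMUSG00000095562 on the X chromosome rested on 20 to 84 input reads per library and had 1.09 and 2.91 against 0.231 and 0.234.

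Among the lower peaks, several of those with the lowest p were on transcripts with a negative LPS change. *Idh1*, which encodes the cytosolic NADP-dependent isocitrate dehydrogenase, had a CDS peak (chromosome 1, 65201080 to 65205419) with a ratio of 0.0721 and 0.0830 in Adap-/- and 1.6 and 0.570 in WT PMs. The difference was −3.74 ± 0.50 (log2, SE; adjusted p = 0.0827) and lay between −4.36 and −2.88 over the alternatives. All 5 tested *Idh1* peaks were negative, from −3.74 to −1.72, and 3 passed the thresholds. The LPS change of the input at this *Idh1* peak was −4.14 in WT and −3.22 in Adap-/- PMs.

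*Pnpla7*, a lysophospholipase gene, had 0.0731 and 0.0639 in Adap-/- and 1.71 and 0.676 in WT PMs (−3.98, adjusted p = 0.0827). The LPS change of its input was −3.27 in WT PMs.

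*Lpl*, which encodes lipoprotein lipase, had a smaller LPS change of the input, −1.42 in WT and −0.96 in Adap-/- PMs. Its start codon peak (chromosome 8, 69333242 to 69333417) had 0.197 and 0.168 in Adap-/- and 0.727 and 0.564 in WT PMs. For *Lpl* this amounts to −1.81 ± 0.26 (log2, SE; adjusted p = 0.0827), and to between −1.99 and −1.62 over the alternatives. *Elf2*, an ETS transcription factor gene, had 0.260 and 0.278 against 0.925 and 0.736 (−1.62), with an LPS change of the input of −0.72 in WT PMs. *Mcm3*, a subunit of the replicative helicase, had 0.206 and 0.292 against 0.831 and 0.780, but its IP level differed by only −0.45 (adjusted p = 0.184) and its input was 1.27 higher on the log2 scale (adjusted p = 0.0293).

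Single peaks of *Cd300lb* and *Klc4* had no IP reads in the Adap-/- libraries. The 3'UTR peak of *Cd300lb*, an activating receptor gene of myeloid cells, had 0 and 0 IP reads in Adap-/- against 173 and 172 in WT PMs, on 10 and 11 against 34 and 34 input reads. *Klc4*, which encodes a kinesin light chain, had 0 and 0 against 151 and 127 IP reads on a CDS peak, on 13 and 13 against 20 and 21 input reads. The WT ratios were 1.90 and 0.749 for this *Cd300lb* peak and 2.82 and 0.895 for *Klc4*. The other 3 tested *Cd300lb* peaks had 26 to 570 IP reads in the Adap-/- libraries, with log2 fold changes of −0.87, −1.03 and −1.17. A second *Klc4* peak next to it had 0 and 1 against 221 and 127 IP reads. Of the 173 lower peaks, 10 had no IP read in either Adap-/- library, whereas 0 of the 122 higher peaks had none in either WT library. Over all peaks, at least 96 had no read in each Adap-/- LPS IP library, against at most 13 in each WT one. The Adap-/- IP libraries were deeper on average. Whether peaks without IP reads were more frequent among the called peaks than this background was not tested. The LPS change of the input was −4.72 for the *Cd300lb* peak and −4.45 for the first *Klc4* peak in WT PMs.

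**Figure D3:**
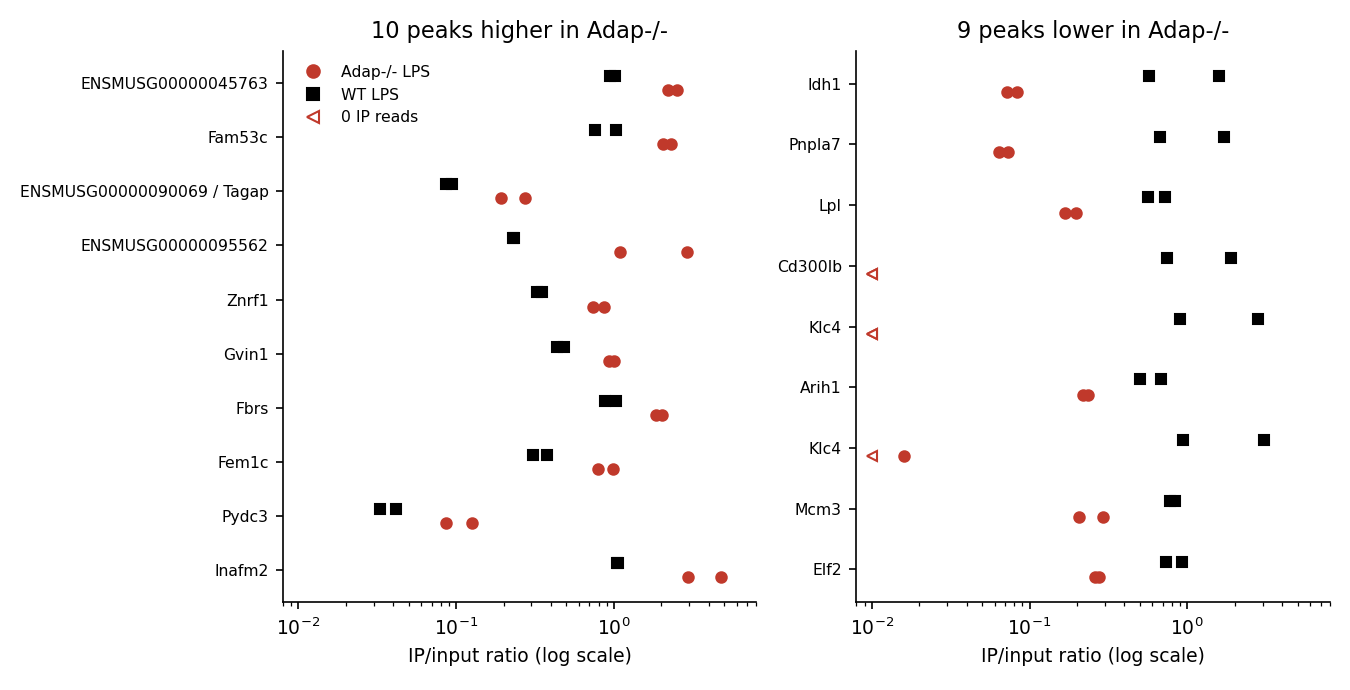
IP-to-input ratio (log axis) of the 10 first higher and 9 of the 10 first lower peaks, with 1 circle per Adap-/- LPS preparation and 1 square per WT LPS preparation; open triangles stand for 0 IP reads and are placed at the left edge. The genotypes do not overlap in any row by the way the peaks were chosen, and the WT values of *Idh1*, *Pnpla7*, *Cd300lb* and *Klc4* are farther apart than those of the higher peaks.

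Lower peaks were most frequent on transcripts that LPS reduces. Among the 49 peaks with an input change below −4 (log2, mean of both genotypes), 12 were lower (24.5%) and 0 higher, and the median log2 fold change was −1.03. Among the 316 peaks between −4 and −2, 37 were lower (11.7%) and 2 higher, with a median of −0.47. The 361 peaks with an input change above 4 had 4 lower and 7 higher peaks and a median of 0.10. In the mock libraries, the ADAP contrast of the 49 peaks had a median of 0.05. The median log2 ratio of these 49 peaks was 1.58 and 1.08 in the WT LPS and 0.46 and 0.85 in the Adap-/- LPS preparations.

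Over all 365 LPS-lowered peaks, 49 were lower and 2 higher, and the median was −0.49. Without WT LPS replicate 1, 17 were lower and the median was −0.39. Without WT LPS replicate 2 the median was −0.64. The other 6655 peaks had 124 lower (1.86%) and 120 higher (1.80%). In a fit without the peaks lowered by more than 2 in WT PMs, 116 peaks were higher and 127 lower, and none passed adjustment. The balance of these other peaks changed with the settings. With upper-quartile scaling 184 of them were lower and 87 higher, without Adap-/- LPS replicate 1 the counts were 300 and 213, and without Adap-/- LPS replicate 2 they were 308 and 129.

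**Figure D4:**
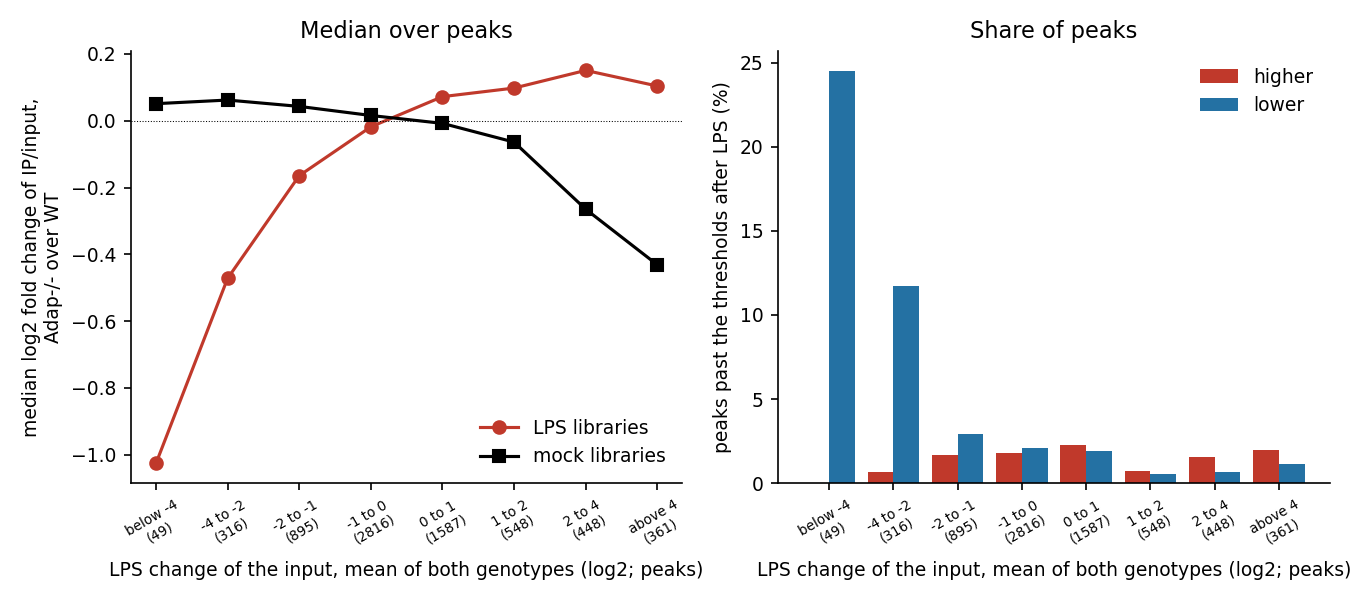
Left, median log2 fold change of the IP-to-input ratio (Adap-/- over WT) in the LPS libraries (red circles) and the mock libraries (black squares) for peaks grouped by the LPS change of their input (mean of both genotypes, log2; number of peaks in parentheses). Right, share of peaks past the unadjusted thresholds after LPS; lower peaks reach 24.5% of the 49 peaks most reduced by LPS, where the LPS median is −1.03 and the mock median 0.05.

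Writers, readers and erasers of m6A were looked up by their own peaks. Of 11 writer genes, 7 had 18 tested peaks, whose median was −0.03 on the log2 scale, and 1 peak passed the unadjusted thresholds as higher (5.56% at an unadjusted p below 0.05, against 6.79% of all peaks). This CDS peak, shared by *Rbm15b*, an RNA-binding subunit of the writer complex, and *Manf*, had 7.10 and 7.45 in Adap-/- and 2.74 and 3.92 in WT PMs (1.11, adjusted p = 0.268). *Mettl3* and *Mettl14* were not among the genes with a tested peak. Of 12 reader genes, 5 had 14 tested peaks with a median of −0.19, of which 1 was lower (7.14%, against 4.69%). It was on *Hnrnpa2b1*, with a stop codon peak at 0.366 and 0.434 against 0.684 and 0.558 (−0.65, unadjusted p = 0.0366, adjusted p = 0.397). *Alkbh5*, an eraser, had 1 peak with 0.44, which missed both thresholds.

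Negative regulators of TLR and cytokine signaling leaned toward higher ratios. Of 45 such genes, 31 had 60 tested peaks. At an unadjusted p below 0.05, 15 peaks on 13 genes were higher (25.0%, against 6.79% of all peaks) and 1 was lower (1.67%, against 4.69%). The median log2 fold change was 0.28, and 44 of 60 peaks were above 0. At the 2-fold threshold 4 of the 60 were higher and 0 lower, against 1.74% and 2.46% of all peaks. None passed adjustment over all peaks. *Cish* and *Spry1* are in this list and were chosen by the study on these libraries. The whole list was chosen with earlier results of these data known, so its shares are not independent of the direction.

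*Socs1*, which encodes an inhibitor of JAK kinases, had a stop codon peak at 0.107 and 0.153 in Adap-/- and 0.0553 and 0.0505 in WT PMs. The difference was 1.29 ± 0.26 (log2, SE; unadjusted p = 0.000827, adjusted p = 0.161). In both genotypes this peak was captured far less than the average peak. A second *Socs1* peak had 0.537 and 0.619 against 0.336 and 0.302 (0.84). *Irak3*, an inhibitory member of the IRAK family that restrains TLR signaling, had 0.541 and 0.494 against 0.316 and 0.321 (0.69, unadjusted p = 0.0034). For *Irak3* the input was higher as well, by 0.61 on the log2 scale (adjusted p = 0.0403). The *Irak3* peak and these *Socs1* peaks were higher in each Adap-/- than in each WT preparation, as were 23.7% of all peaks tested.

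*Dusp16*, a phosphatase gene of MAP kinases, had 2 higher peaks. Its CDS peak was at 1.19 and 1.21 in Adap-/- and 0.494 and 0.717 in WT PMs (1.03), and its stop codon peak at 2.06 and 1.55 against 1.29 and 1.11 (0.57). The RNases and RNA-binding proteins that degrade cytokine mRNAs were represented by *Zc3h12c* (0.69) and *Zfp36* (0.63). *Tnfaip3* (A20), which edits ubiquitin chains on NF-κB activators, had 1.34 and 1.36 against 1.01 and 1.09 (0.36). The IκB genes *Nfkbia* and *Nfkbie* both had 0.38, and *Socs3*, *Peli1* and *Atf3* had 0.40, 0.55 and 0.51. The 1 lower peak was on *Nfkbiz*, an atypical IκB gene that also activates transcription, with 0.411 and 0.332 against 0.551 and 0.459 (−0.44).

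The count of this list depended on the processing. It was 8 higher peaks with upper-quartile scaling (13.3%, against 4.34% of all peaks) and 7 after the level trend was removed (11.7%, against 4.94%). It was 9 in DESeq2 (15%, against 4.77%), and 6 to 10 with 1 preparation left out. With the spread estimated over all 16 libraries, 1 peak remained (1.67%, against 3.06%). The median was 0.18 with upper-quartile scaling and also after removal of the trend, and 0.28 with all 16 libraries. The list is more abundant than the average peak, with a median level of 6.35 against 4.75 (log2 CPM), and its input had a median LPS change of 1.63 against −0.17.

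Genes of TLR4 and NF-κB signaling came next. Of 42 genes, 30 had 51 tested peaks, of which 8 were higher (15.7%, against 6.79% of all peaks) and 2 lower (3.92%, against 4.69%) at an unadjusted p below 0.05, with a median log2 fold change of 0.17. With all 16 libraries 3 were higher (5.88%, against 3.06%). The median was −0.02 after removal of the level trend, and 6 peaks were then higher. *Cd14*, the LPS co-receptor, had 1.44 and 1.55 in Adap-/- and 0.767 and 0.904 in WT PMs (0.85, adjusted p = 0.221). *Ticam2*, the adaptor that couples TLR4 to interferon signaling, had 0.802 and 0.929 against 0.454 and 0.495 (0.85), and *Ticam1*, its partner, had 1.29 and 1.04 against 0.644 and 0.674 (0.84). The TNF receptor genes *Tnfrsf1b* and *Tnfrsf1a* had 0.64 and 0.37, and *Birc3* and *Traf2*, which act downstream of them, had 0.54 and 0.55.

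Some genes of this list went the other way. *Tirap*, the adaptor that brings MyD88 to TLR4, had a 3'UTR peak at 0.344 and 0.420 against 1.25 and 0.724 (−1.35). *Tab1*, a subunit of the TAK1 kinase complex, had 1 3'UTR peak at 2.33 and 1.91 against 0.834 and 0.804 (1.36) and another at 0.309 and 0.268 against 1.97 and 1.58 (−2.62). The lower *Tab1* peak rested on 6 to 10 input reads per library.

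The KEGG annotation of the table was counted in the same way. In the TNF signaling pathway, 21 of 134 peaks were higher (15.7%) and 5 lower (3.73%) at an unadjusted p below 0.05. In the NF-κB signaling pathway 15 of 95 were higher (15.8%) and 3 lower (3.16%). Among all peaks, 6.79% were higher and 4.69% lower. With upper-quartile scaling and after removal of the level trend, each pathway had 8 higher peaks, which is 5.97% for TNF and 8.42% for NF-κB against 4.34% and 4.94% of all peaks. With all 16 libraries there were 3 (2.24%) and 4 (4.21%), against 3.06%. At the 2-fold threshold, 1 of the 134 TNF pathway peaks was higher and 5 were lower, against 1.74% and 2.46% of all peaks. The Ribosome pathway had 29 peaks, 0 of them higher and 3 lower (10.3%, against 4.69% of all peaks). Its median log2 fold change was −0.36.

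Cytokines and interferon-stimulated genes had shares near or below those of all peaks. Among all peaks, 6.79% were higher and 4.69% lower at an unadjusted p below 0.05. Of 59 cytokine and chemokine peaks on 29 of 43 genes, 3 were higher (5.08%) and 2 lower (3.39%). The median was 0.19, but −0.05 without Adap-/- LPS replicate 2 and 0.0050 after removal of the level trend. The higher ones were *Tgfb1* (0.63), *Tnfsf9* (0.51) and *Csf1* (0.44). *Il27*, a cytokine subunit gene of the IL-12 family, passed the 2-fold threshold as lower, with 0.713 and 0.588 in Adap-/- and 1.16 and 2.35 in WT PMs (−1.30, adjusted p = 0.423), on 10 to 31 input reads per library.

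Of 155 interferon-stimulated gene peaks on 37 of 48 genes, 6 were higher (3.87%) and 4 lower (2.58%). The shares of all peaks were 6.79% and 4.69%. The list had a median of 0.06, which turned to −0.04 with upper-quartile scaling and −0.08 after removal of the level trend. Peaks under the symbol *Tgtp1*, an interferon-stimulated GTPase gene with near-identical copies, lay on several gene IDs and differed both ways. A 5'UTR peak of ENSMUSG00000040328 and ENSMUSG00000078920, labeled *Olfr56* and *Tgtp1*, had 0.195 and 0.224 against 0.910 and 0.859 (−2.09). A 3'UTR peak under the same symbols, but of ENSMUSG00000040328 and ENSMUSG00000069892, had 1.14 and 1.45 against 0.634 and 0.813 (0.86). These opposite changes are thus not shown to lie on 1 transcript. *Dtx3l*, *Oasl2* and *Isg20* had 0.67, 0.36 and 0.48. *Gbp5* and *Irgm1*, which encode interferon-induced GTPases, had −0.60 and −0.45.

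Partners of ADAP and integrin adhesion genes had 45 tested peaks on 29 of 45 genes, 2 of them higher and 2 lower (4.44% each). The shares of all peaks were 6.79% and 4.69%. The list had a median of 0.05 that turned to −0.05 with upper-quartile scaling and −0.04 after removal of the level trend. *Sirpa*, the CD47 receptor of macrophages, had a stop codon peak at 0.333 and 0.320 in Adap-/- against 0.520 and 0.430 in WT PMs (−0.53, unadjusted p = 0.00671) and a 3'UTR peak at 1.56 and 1.53 against 1.10 and 1.23 (0.41). These 2 peaks of 1 transcript therefore pointed in opposite directions. *Itga5*, the fibronectin receptor subunit, had 0.50. The other lower peak was on *Fyb1* itself and rested on 5 and 2 input reads in Adap-/- PMs.

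Of the JAK and STAT genes, *Jak2* had 2 higher peaks, at 0.654 and 0.595 against 0.406 and 0.415 (0.60) and at 0.870 and 0.550 against 0.392 and 0.515 (0.62). *Stat6*, which mediates IL-4 signaling, had a lower one at 0.469 and 0.421 against 0.780 and 0.588 (−0.62). Among polarization markers, 8 of 13 genes had 22 tested peaks, 1 higher (4.55%, against 6.79% of all peaks) and 2 lower (9.09%, against 4.69%). The lower ones were *Msr1*, a scavenger receptor gene, with 0.300 and 0.339 against 0.743 and 0.791 (−1.27, adjusted p = 0.161), and *Arg1*, a marker of alternative activation, with 0.260 and 0.395 against 0.827 and 0.559 (−1.01, adjusted p = 0.427). The higher one was *Nos2*, the inducible nitric oxide synthase, with 0.104 and 0.232 against 0.109 and 0.0604 (0.99), where the genotypes overlapped. It missed the threshold with either replicate block, with upper-quartile scaling, with all 16 libraries and without Adap-/- or WT LPS replicate 2. The LPS change of the input in WT PMs was −2.45 for *Arg1* and 1.15 for *Msr1*.

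**Figure D5:**
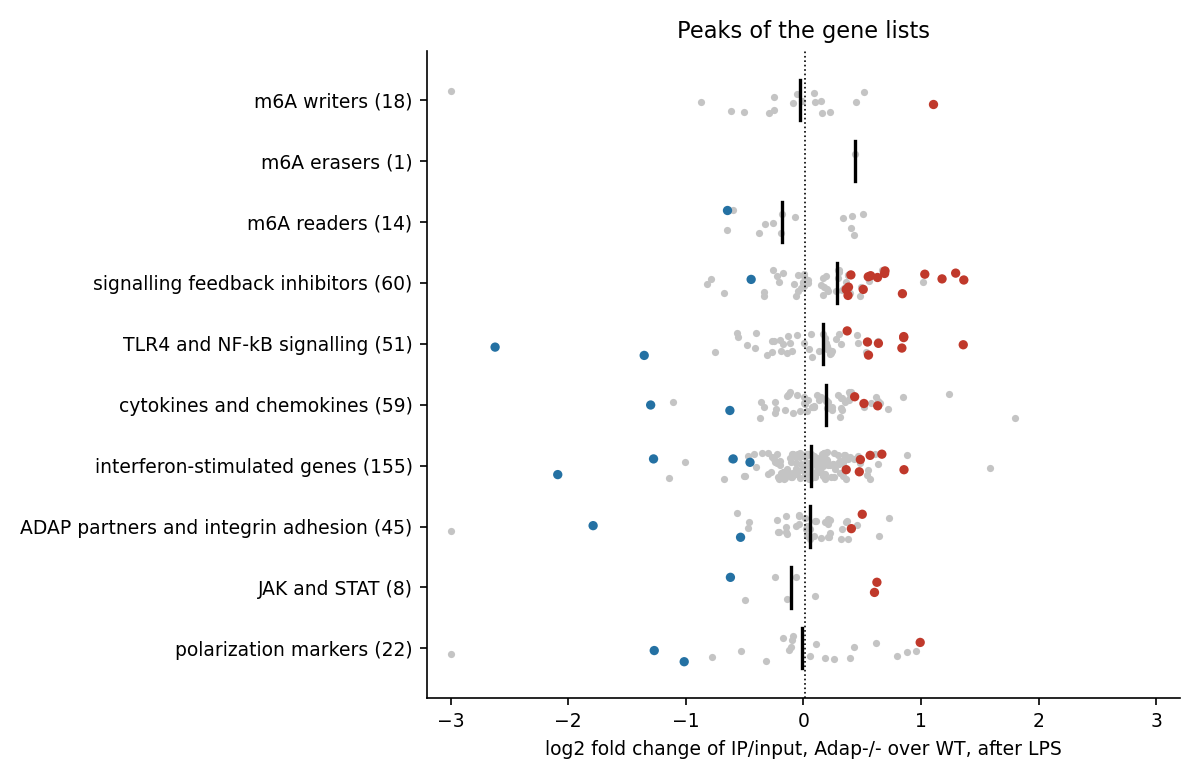
Log2 fold change of the IP-to-input ratio (Adap-/- over WT, after LPS) of the peaks of each gene list, clipped at −3 and 3, with the number of peaks in parentheses, the list median as a black bar and the median of all peaks (0.02) as a dotted line. Red and blue points have an unadjusted p below 0.05. Of the signaling feedback inhibitors, 15 of 60 peaks are red, against 6.79% of all peaks. The lists were chosen with earlier results of these data known.

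The genes *Pou3f1*, *Cish*, *Cd300lb* and *Spry1* had been chosen by the study on these libraries. In the fit of the 8 LPS libraries, 3 of their 10 tested peaks were past the unadjusted thresholds as higher and 2 as lower, and none passed adjustment. The higher ones were 0 with all 16 libraries and also without Adap-/- LPS replicate 2, and 2 in DESeq2. *Spry1*, a receptor tyrosine kinase inhibitor, had 2.54 and 3.09 in Adap-/- and 1.49 and 0.793 in WT PMs (1.36 ± 0.51, adjusted p = 0.362). The *Spry1* peak rested on 22 and 16 input reads in Adap-/- and 12 and 14 in WT PMs. *Cish*, a STAT5 inhibitor whose peak is shared with ENSMUSG00000090570, had 1.5 and 1.59 against 0.690 and 0.694 (1.18 ± 0.37, adjusted p = 0.298). For *Pou3f1*, a POU domain transcription factor gene, the CDS peak with 3.43 and 5.67 against 1.12 and 2.70 (1.37, adjusted p = 0.300) had a higher ratio with lower IP, as IP differed by −0.59 and input by −1.96 on the log2 scale (adjusted p = 0.167 and 0.0248). *Spry1* and *Cish* were higher in IP, by 1.83 and 1.88 (adjusted p = 0.00844 and 0.00312).

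By transcript region, the largest difference was in the 5'UTR. The median log2 ratio over 160 5'UTR peaks was 0.36 and 0.38 in Adap-/- and 0.66 and 0.67 in WT PMs, a difference of −0.29. Over 943 start codon peaks it was −0.08 and −0.11 against 0.03 and 0.01, a difference of −0.12. At stop codons, in the CDS and in the 3'UTR the differences were 0.02, −0.02 and −0.06. With 2 preparations per genotype, the exact two-sided permutation test cannot go below p = 0.333, which all 5 regions reached. The difference in the 5'UTR lay between −0.38 and −0.27 over the alternatives. In the mock libraries, the 5'UTR medians, taken without peaks at 0, were 0.44 and 0.36 in Adap-/- and 0.87 and 0.35 in WT PMs. Taken in this way, the LPS medians were 0.37 and 0.36 in Adap-/- and 0.60 and 0.55 in WT PMs. The median log2 fold change of the 160 peaks was −0.17 with LPS and −0.17 in mock.

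Called peaks were not evenly spread over the regions. Among start codon peaks, 26 were higher (2.76%) and 41 lower (4.35%). The CDS had 52 higher (2.29%) and 44 lower (1.94%), stop codons 27 (1.17%) and 48 (2.08%), and the 3'UTR 10 (0.887%) and 28 (2.48%). In the 5'UTR 4 were higher and 3 lower. Of the 844 peaks that span more than 500 bases of the genome, introns included, 39 were lower (4.62%) and 8 higher (0.948%).

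Several peaks of a gene often pointed the same way. On genes with a higher peak, 132 of 211 further peaks were above 0 (62.6%), against 51.4% of all peaks. On genes with a lower peak, 63 of 105 were below 0 (60.0%), the direction of the minority of all peaks. Peaks of 1 gene share its input reads and are not independent. *Cd93*, a receptor gene of myeloid cells, had 4 lower peaks among 7 tested, with log2 fold changes from −2.85 to −0.27, and *Idh1* had 3 of 5. *Arrb1* and *Cnr2*, which encode beta-arrestin 1 and the cannabinoid receptor 2, each had 2 of 2. On *Gvin1* and *Tnrc6c*, by contrast, 2 peaks were higher while others were as low as −1.25 and −1.13.

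The same ADAP contrast was taken in mock-treated PMs for reference. At an unadjusted p below 0.05, 148 of 7058 peaks differed (2.10%), and none after adjustment (0.00%). The mock IP libraries were unequal, since on the 361 peaks most raised by LPS the median log2 ratio was 2.55 in Adap-/- mock replicate 2 and 3.38 in WT mock replicate 1, but 0.09 and −0.28 in the other replicates. Of the 122 peaks higher after LPS, 74 were also above 0 in mock (60.7%, against 48.9% of all peaks), and of the 173 lower peaks 117 were below 0 (67.6%, against 51.1%). Across peaks, which are not independent replicates, the Spearman correlation of the LPS and mock fold changes was 0.13 over 7020 peaks.

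Whether the ADAP contrast differed between LPS and mock was tested directly on all 16 libraries. No peak passed adjustment in edgeR (0.00%), and 228 of 7058 had an unadjusted p below 0.05 (3.23%). DESeq2 called 7 peaks after adjustment, all more negative with LPS. Leaving out the unequal mock replicates, Adap-/- 2 and WT 1, gave 0 calls, whereas leaving out Adap-/- LPS replicate 1 or 2 gave 5 and 4. The difference had an unadjusted p of 0.000532 for the *Cd300lb* 3'UTR peak and 0.00219 for *Lpl*, where the mock contrast was −1.02 and −0.29. *Idh1* and *Pnpla7* were already negative in mock, with −2.0 and −3.44, and the edgeR test of their differences gave an unadjusted p of 0.0948 and 0.686. For *Socs1*, *Cish* and *Spry1* the edgeR p of the difference was 0.797, 0.359 and 0.730. Their mock contrasts were 0.67 ± 1.78, −0.25 ± 1.31 and 0.44 ± 2.06 (log2, SE). With such wide errors, these p-values do not show that the contrasts with and without LPS were alike.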

How the data were processed

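PMs of WT and Adap-/- mice gave input and IP libraries. The authors deposited raw read counts per merged peak, without normalization, made on the Omicsmart platform; the submitters' processing notes name Bowtie2 2.2.8, MACS2 2.1.2, DiffBind 2.8 and GRCm39 without their roles. Coordinates are those of the table. The 8094 lines were reduced to 7069 peaks, since a peak shared by several genes is listed for each with identical counts. Groups were taken from the sample titles. The members and gene lists were chosen with earlier results of these data known. KEGG terms came with the table.

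Counts of the 8 LPS libraries were fitted in edgeR 4.0.16 (R 4.3.3; filterByExpr at 10 reads and 15 reads in total, TMM, 1 mean per group, quasi-likelihood test). The contrast was Adap-/- IP over input against WT IP over input, with Benjamini-Hochberg adjustment over all 7020 peaks tested. The biological coefficient of variation was 22.8%. Ratios are TMM-scaled CPM of IP over input. Standard errors came from the F statistic. Named peaks followed the rule given in the text, plus listed genes past the unadjusted thresholds and fixed genes; other peaks with p below 0.05 in lists, *Cd93*, *Arrb1*, *Cnr2* and *Tnrc6c* were named after their values were seen. Of the 10 first lower peaks, 1 is not reported here. Input and IP of a number come from 1 RNA preparation by the protocol; their replicate differences correlated with r of 0.08 and 0.09 over 7058 peaks in Adap-/- and WT PMs. Alternatives included DESeq2 1.42.0, other scalings and filters, a block, and leaving out each preparation. Molecular identifiers are not named in the sources used here, and bounds cover counting error only.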

Additional observations from a re-analysis of the deposited data

How the results depend on the processing

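Over the alternatives, the number of peaks with an adjusted p below 0.05 was 60 in DESeq2, 7 with robust estimation, 1 with all 16 libraries, 0 to 1 with 1 preparation left out and 1281 in the IP counts alone, against 0 in edgeR. With the RNA preparation as a replicate block it was 0, with 118 higher and 200 lower peaks at the unadjusted thresholds, and with the replicate number as a block 0, with 120 and 169. Neither block changed a call after adjustment. The 295 peaks past the unadjusted thresholds became 635 in the IP counts alone, 606 at 1.5-fold and 145 to 585 with 1 preparation left out. Called IP levels were 1281 and 77 to 1495 with 1 preparation left out, fewest without WT LPS replicate 1. Called input levels were 193, with 329 in DESeq2, 294 with robust estimation and 5 to 117 with 1 preparation left out. The difference between LPS and mock had 7 calls in DESeq2 and 0 to 5 with 1 preparation left out.

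The region differences moved with upper-quartile scaling to −0.0756 at stop codons, −0.11 in the CDS, −0.15 in the 3'UTR, −0.22 at start codons and −0.38 in the 5'UTR. With TMM within IP and within input they moved to 0.00317 at stop codons, −0.0282 in the CDS and −0.14 at start codons. With 1 preparation left out, they were 0.0102 to 0.0247 at stop codons, −0.0242 to −0.00456 in the CDS, −0.0742 to −0.0333 in the 3'UTR, −0.13 to −0.11 at start codons and −0.31 to −0.27 in the 5'UTR. Of 733 values for the 44 named peaks, 660 kept their direction and their side of the adjusted threshold, 61 passed it and 12 turned their sign, all on *Pou3f1* and *Fyb1*. The 3 *Pou3f1* peaks had −0.59, −0.52 and −0.78 in IP alone. With 1 preparation left out, 3 *Fyb1* peaks ranged from −4.49 to 0.14, from −0.00695 to 0.18 and from −2.03 to 1.29, the last with −0.59 without Adap-/- LPS replicate 1. The second had −2.12e-05 with upper-quartile scaling and −0.65 in IP alone, and the last −0.0690 with upper-quartile scaling, −0.0445 with the number block and −0.61 in IP alone. The cause was not tested. Of the 295 peaks, 17 of the higher and 40 of the lower had under 10 reads in some input library.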
